A study of Mus musculus with 12 samples.

Results

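Antioxidant and metallothionein genes were followed in 12 perfused mouse hearts. The set was a list of 10 genes given by name, with no threshold on a measured value, and it was drawn up with earlier results of these same libraries known. It held the metallothioneins Mt1 and Mt2, the antioxidant genes Hmox1, Srxn1, Txnrd1, Gclc, Gclm, Nqo1 and Slc7a11, and Nfe2l2, which encodes the transcription factor NRF2. All 10 were among the 52858 genes listed, and 9 of the 10 had enough reads to be among the 15240 genes tested. Slc7a11 did not.

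The hearts came from C57BL/6J mice and from Slit2-Tg mice labelled with the same strain, which carry a human Slit2 cDNA under the CMV promoter, a promoter that is not restricted to the heart, and whose founders were C57 × CBA F1 embryos. The mice were male and 3 to 5 months old. Each heart was perfused outside the body on a Langendorff apparatus. In the C57-IR and Slit2-IR groups, flow to the whole heart was stopped for 20 min after an equilibration of 20 min and was then restored for 40 min. The C57-non-IR and Slit2-non-IR hearts kept their flow throughout, for 80 min in all. There were 3 hearts in each group, and the labels give IR or non-IR only as a letter of the sample title. RNA of heart tissue was measured, as FPKM (fragment counts scaled to gene length and library depth). Because whole tissue was sequenced, fewer cells of a type and less RNA per cell cannot be told apart.

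Between 16601154 and 24841291 reads per library fell on genes. Ventricular cardiomyocyte markers summed to 14486 to 22211 FPKM in every library, and all 9 of them were detected. Slit2-IR replicate 1 stood apart, with atrial markers at a sum of 1933 FPKM, against 96.6 to 321 FPKM in the other 11 libraries. Slit2-non-IR replicate 2 held the most red blood cell RNA, at a sum of 49.0 FPKM over 7 markers, against 1.47 to 16.3 FPKM elsewhere. The mouse Slit2 row ranged from 0.0847 to 0.813 FPKM in Slit2-Tg hearts and from 0.180 to 0.282 FPKM in C57BL/6J hearts, so it did not separate the genotypes, which were taken from the labels.

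Oxidants and electrophiles modify KEAP1, the adaptor that otherwise sends NRF2 for degradation, and NRF2 then enters the nucleus. There it pairs with a small MAF protein and binds antioxidant response elements near genes of glutathione synthesis, thioredoxin reduction and heme breakdown, while BACH1 occupies the same elements as a repressor. Metallothioneins are small cysteine-rich proteins that bind zinc and copper, and their genes are switched on through metal response elements by MTF1 and also by glucocorticoids. In the heart these systems are known for limiting the oxidant burst that follows reperfusion.

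Mt1 and Mt2 lie next to each other on chromosome 8, at chr8:94179082-94180327 and chr8:94172664-94173568 (GRCm38, forward strand). Their coding sequences are shown because the 2 genes are alike in coding length and in the placing of cysteine codons. Capitals mark the cysteine codons, of which each gene has 20, at 20 shared positions.
Mt1: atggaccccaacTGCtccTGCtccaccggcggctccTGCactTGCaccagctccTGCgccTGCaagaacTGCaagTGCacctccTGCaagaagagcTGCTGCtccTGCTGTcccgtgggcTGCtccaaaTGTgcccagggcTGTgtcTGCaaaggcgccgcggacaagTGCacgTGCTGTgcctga
Mt2: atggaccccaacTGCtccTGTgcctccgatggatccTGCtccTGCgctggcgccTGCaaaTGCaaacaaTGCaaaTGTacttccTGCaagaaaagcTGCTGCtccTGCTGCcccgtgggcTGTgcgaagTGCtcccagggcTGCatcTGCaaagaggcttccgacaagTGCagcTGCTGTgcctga
The sequences, from GENCODE M21 transcripts Mt1-201 and Mt2-201, were 186 bases long and identical at 148 positions (79.6%), and the longest run of identical bases was 20.

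Promoter windows of 300 bases, 250 before and 50 after the annotated start, were given for 8 of the 10 genes in the RefSeq-derived table of GRCm38.p6, and Hmox1 and Gclc were not among them. They were searched on both strands for the antioxidant response element core TGACNNNGC and for metal response element cores, TGCACNC or TGCGCNC. The 2 metallothionein windows are shown for their metal response element cores, and capitals mark every core of either kind. Mt1 (chr8:94178839-94179138, forward strand) held 3 and no antioxidant core.
Mt1: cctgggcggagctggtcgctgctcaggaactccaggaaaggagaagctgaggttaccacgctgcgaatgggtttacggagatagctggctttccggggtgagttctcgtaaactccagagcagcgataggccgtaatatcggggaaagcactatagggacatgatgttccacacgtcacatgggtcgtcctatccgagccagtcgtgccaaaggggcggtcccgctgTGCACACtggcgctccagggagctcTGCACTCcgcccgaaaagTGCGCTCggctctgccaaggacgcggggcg
Mt2: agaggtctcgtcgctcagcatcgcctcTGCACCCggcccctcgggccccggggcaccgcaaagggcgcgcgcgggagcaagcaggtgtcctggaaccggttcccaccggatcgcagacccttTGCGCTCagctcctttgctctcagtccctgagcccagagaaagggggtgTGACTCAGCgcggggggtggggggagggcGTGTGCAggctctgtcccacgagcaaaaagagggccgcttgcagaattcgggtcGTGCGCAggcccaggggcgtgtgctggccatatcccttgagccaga
Mt2 (chr8:94172368-94172667, forward strand) held 4 metal cores, and also 1 antioxidant core, whose first base lay 79 bases before the start. Across all 32851 windows of the table, 25.7% held a metal core and 12.4% an antioxidant core. For metal cores, 7.11% of windows held 2 or more and 0.517% held 4 or more. Metal cores were not limited to the metallothioneins, since the Gclm window held 3 and the Srxn1 window 1.

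Antioxidant cores stood in 5 of the 10 windows of these 8 genes, against 12.4% of all windows, namely in those of Mt2, Srxn1, Txnrd1, Gclm and Nfe2l2. The windows of Srxn1, Txnrd1 and Gclm are shown, since these genes encode enzymes of the NRF2 program and their levels are compared after IR. Capitals mark antioxidant and metal cores, which overlap in Gclm.
Srxn1: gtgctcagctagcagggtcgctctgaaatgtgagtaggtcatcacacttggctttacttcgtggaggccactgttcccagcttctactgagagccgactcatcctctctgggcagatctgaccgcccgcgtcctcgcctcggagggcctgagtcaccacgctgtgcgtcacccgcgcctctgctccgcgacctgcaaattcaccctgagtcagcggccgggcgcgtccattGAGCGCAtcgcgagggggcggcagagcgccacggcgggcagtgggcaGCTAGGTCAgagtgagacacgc
Txnrd1: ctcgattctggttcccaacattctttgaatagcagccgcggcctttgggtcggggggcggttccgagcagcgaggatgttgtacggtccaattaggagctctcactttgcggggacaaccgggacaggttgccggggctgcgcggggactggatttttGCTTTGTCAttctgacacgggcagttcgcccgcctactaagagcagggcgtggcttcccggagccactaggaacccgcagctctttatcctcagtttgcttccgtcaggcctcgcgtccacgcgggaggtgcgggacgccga
Gclm: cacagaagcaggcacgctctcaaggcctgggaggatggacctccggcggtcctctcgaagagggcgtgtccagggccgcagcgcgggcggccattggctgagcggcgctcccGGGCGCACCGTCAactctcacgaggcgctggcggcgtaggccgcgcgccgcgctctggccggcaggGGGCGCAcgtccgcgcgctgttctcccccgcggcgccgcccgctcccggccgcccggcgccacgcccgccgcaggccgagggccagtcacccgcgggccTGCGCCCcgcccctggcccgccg
They lie at chr2:152105274-152105573, chr10:82858956-82859255 and chr3:122245307-122245606, all on the forward strand, and the Txnrd1 window is the second of its 3. The windows of Nqo1 and Slc7a11 held neither core. A match of letters is a description of a window and not a measured binding site.

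None of the 9 tested genes passed limma's test at an adjusted p under 0.05 in any of the 6 contrasts. That was also the count with voom on recovered reads. After IR in C57BL/6J hearts, 0.459% of all tested genes passed that threshold, 0.525% did so in Slit2-Tg hearts, and 3.49% did so for the mean IR difference over both genotypes. The counts that follow describe the list and are no independent evidence of its direction, since the genes were listed with results of these libraries known. At an unadjusted p under 0.05, 4 of 9 genes were called in C57BL/6J hearts, all higher after IR (Hmox1, Srxn1, Txnrd1 and Gclc), where 8.96% of all genes were called and 4.55% were called as higher. In Slit2-Tg hearts the count was 1 of 9, Gclm, against 11.2% of all genes. For the mean IR difference it was 7 of 9, of which 6 were higher after IR (Hmox1, Srxn1, Txnrd1, Gclc, Nfe2l2 and Mt2) and 1 lower (Gclm), against 15.9% of all genes and 7.93% for the higher direction. The C57BL/6J count was 1 without C57-IR replicate 2 and 2 without C57-non-IR replicate 1 or replicate 2, and the Slit2-Tg count was 2 without Slit2-IR replicate 3 and 3 without Slit2-non-IR replicate 2. Mt2 passed the filter on low values through IR libraries alone, and without it the count was 6 of 8. With voom, the unadjusted counts for these 3 contrasts were 4, 1 and 6. The median difference of the 9 genes, on the log2(FPKM + 1) scale, was 0.33 in C57BL/6J hearts, 0.24 in Slit2-Tg hearts and 0.28 over both, against medians between 0.00 and 0.01 for all tested genes.

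**Figure D1:**
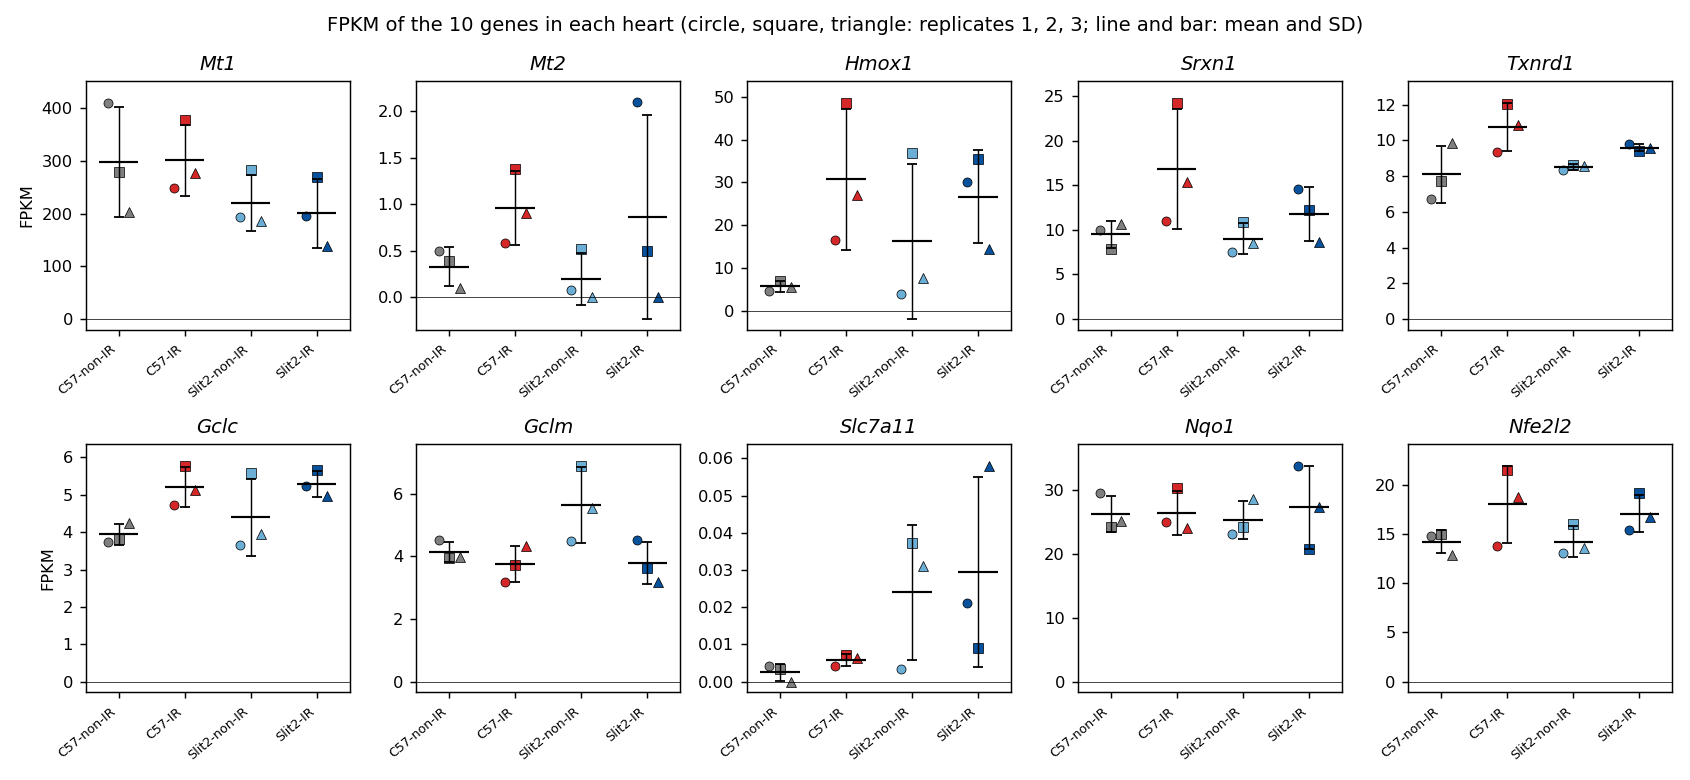
FPKM of each of the 10 genes (vertical axes, linear, differing between panels) in the 12 hearts, by group; symbols are replicates 1 to 3, horizontal lines are group means and bars are SD (n = 3). Hmox1 is above 14 FPKM in all 6 IR hearts and also in Slit2-non-IR replicate 2, while Nqo1 and Mt1 show no separation of the groups.

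Hmox1 encodes heme oxygenase-1, which breaks down heme, and of the 9 tested genes it differed most after IR. It lies at chr8:75093621-75100589 (GRCm38). In C57-non-IR hearts its level was 4.46, 7.01 and 5.58 FPKM, and in C57-IR hearts it was 16.4, 48.6 and 27.0 FPKM. Every C57-IR heart was above every C57-non-IR heart, and the means were 30.7 ± 16.4 and 5.68 ± 1.28 FPKM (SD, n = 3), a 5.40-fold difference. On the log2(FPKM + 1) scale the difference was 2.13 (SE 0.64), with an adjusted p of 0.238 in limma. With 1 library left out it ran from 1.74, without C57-IR replicate 2, to 2.50, without C57-IR replicate 1.

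The Slit2-Tg hearts did not separate in this way. Hmox1 stood at 3.96, 37.0 and 7.51 FPKM in Slit2-non-IR hearts and at 30.0, 35.4 and 14.5 FPKM in Slit2-IR hearts. The non-IR heart at 37.0 FPKM, replicate 2, was above all 3 Slit2-IR hearts, while the other 2 non-IR hearts were below them. It is also the library with the most red blood cell RNA. Its lung markers summed to 12.4 FPKM, the highest among the 12 libraries. That sum was not far above 11.3 FPKM in C57-IR replicate 3, 9.82 FPKM in C57-non-IR replicate 3 and 9.60 FPKM in C57-IR replicate 2. The part of either in the Hmox1 level was not tested. The IR difference in Slit2-Tg hearts was 1.15 (SE 0.64, adjusted p = 0.565), and without Slit2-non-IR replicate 2 it was 1.997, with an adjusted p of 0.173. With same-numbered hearts as blocks, Hmox1 joined Gclm at an unadjusted p under 0.05, so that the count was 2 of 9 in place of 1. The adjusted p of Hmox1 was then 0.299. That fit took the same block effects in all 12 libraries. Same-numbered hearts of the Slit2-Tg groups correlated at 0.143 or more. In the comparisons of C57-non-IR with C57-IR and Slit2-non-IR hearts this fell to 0.0833 and 0.0377, so the numbers do not pair all groups of the fit.

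For the mean IR difference over both genotypes, Hmox1 came to 1.64 (SE 0.45), with an adjusted p of 0.0801. Leaving out Slit2-non-IR replicate 2 gave 2.06 and an adjusted p of 0.00945, and Gclc also passed then, at 0.0333. Leaving out C57-IR replicate 1 let Nfe2l2 pass, at 0.0405. In the other direction, the lowest Hmox1 difference with 1 library left out was 1.33, without Slit2-non-IR replicate 1. Over all alternatives the highest adjusted p was 0.197 for Hmox1, 0.297 for Gclc and 0.437 for Nfe2l2. The order of the Hmox1 group means was C57-non-IR, Slit2-non-IR, Slit2-IR and C57-IR, and every pair of neighbours in that order overlapped in its libraries. In each of the 4 groups, replicate 2 had the highest Hmox1 level, as it had for Nfe2l2. The labels name no day, litter or batch that same-numbered hearts shared. Macrophage markers, 11 of 11 detected in every library, summed to 234, 487 and 524 FPKM in C57-IR hearts and to 270, 526 and 474 FPKM in C57-non-IR hearts, ranges that overlap. Replicate 1 was lowest in both of these groups, as it was for Hmox1. The part of macrophages in the Hmox1 level was not tested.

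Markers of some other cell types were higher or lower in the IR libraries of C57BL/6J hearts as well. Adipose markers summed to 0.0718, 0.861 and 0.292 FPKM in C57-non-IR hearts and to 0.122, 13.3 and 16.6 FPKM in C57-IR hearts. The 2 high libraries, C57-IR replicates 2 and 3, were also the highest of the 6 C57BL/6J libraries for Hmox1 and Srxn1. Of 4 tested adipose markers, 4 were higher after IR, with a median difference of 0.86, where 50.5% of all tested genes were higher. At an unadjusted p under 0.05, 3 of the 4 were called as higher, against 4.55% of all tested genes, and 0 passed the adjusted threshold. Atrial markers were higher in 10 of 10 and fibroblast markers in 7 of 7, endothelial markers were lower in 8 of 8 and red blood cell markers in 4 of 4. In these last 4 lists 0 reached an unadjusted p under 0.05. Mesothelial markers were higher in 4 of 4, 1 of them at that threshold. In Slit2-Tg hearts 2 of 4 adipose markers were higher and 2 lower, with a median of -0.05. The part of these cell types in the IR differences of the 10 genes was not tested.

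Sulfiredoxin-1 and thioredoxin reductase 1 restore oxidized peroxiredoxins and thioredoxin. Srxn1 (chr2:152105516-152111376) was measured at 9.99, 7.82 and 10.7 FPKM in C57-non-IR hearts and at 11.01, 24.2 and 15.3 FPKM in C57-IR hearts. Those groups did not overlap, with C57-IR replicate 2 far above the rest, and the difference was 0.71 (SE 0.26, adjusted p = 0.391). Without that replicate it was 0.43. In Slit2-Tg hearts Srxn1 was 7.52, 10.9 and 8.50 FPKM without IR and 14.6, 12.2 and 8.59 FPKM after it, and the groups overlapped (difference 0.34, SE 0.26, adjusted p = 0.704). Txnrd1 (chr10:82833951-82897712) was 6.74, 7.72 and 9.87 FPKM in C57-non-IR hearts and 9.33, 12.02 and 10.9 FPKM in C57-IR hearts, where the lowest IR heart was below the highest non-IR heart. Its spread was narrow in Slit2-Tg hearts, with 8.35, 8.65 and 8.55 FPKM in Slit2-non-IR and 9.82, 9.41 and 9.57 FPKM in Slit2-IR hearts, so that all IR hearts lay above all non-IR hearts. The differences were 0.37 (SE 0.12, adjusted p = 0.315) in C57BL/6J and 0.16 (SE 0.12, adjusted p = 0.724) in Slit2-Tg hearts.

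Glutathione is made in a first step by glutamate-cysteine ligase, whose catalytic subunit is Gclc and whose modifier subunit is Gclm. The IR differences of the 2 subunits had opposite signs, but that of Gclm in C57BL/6J hearts was smaller than its SE. Gclc (chr9:77754535-77794485) was 3.74, 3.83 and 4.25 FPKM in C57-non-IR hearts and 4.72, 5.77 and 5.12 FPKM in C57-IR hearts, without overlap (difference 0.33, SE 0.13, adjusted p = 0.447). In Slit2-Tg hearts it was 3.66, 5.57 and 3.95 FPKM without IR and 5.25, 5.67 and 4.98 FPKM after it (difference 0.24, SE 0.13, adjusted p = 0.546). The non-IR heart at 5.57 FPKM was again Slit2-non-IR replicate 2. Gclm (chr3:122245557-122270732) was 4.52, 3.96 and 3.97 FPKM in C57-non-IR hearts, 3.19, 3.74 and 4.32 FPKM in C57-IR hearts, 4.48, 6.89 and 5.56 FPKM in Slit2-non-IR hearts and 4.52, 3.64 and 3.19 FPKM in Slit2-IR hearts. It was the one gene of the 9 that was lower after IR at an unadjusted p under 0.05. This held in Slit2-Tg hearts, at -0.47 (SE 0.15, adjusted p = 0.231), and over both genotypes, at -0.29 (SE 0.11, adjusted p = 0.183). In C57BL/6J hearts the Gclm difference was -0.12 (SE 0.15, adjusted p = 0.946 in limma), and those groups overlapped. Mean Gclm was 5.64 FPKM in Slit2-non-IR hearts, against 4.15 FPKM in C57-non-IR, 3.75 FPKM in C57-IR and 3.78 FPKM in Slit2-IR hearts. Slc7a11 (chr3:49892526-50443614), the cystine carrier that feeds this pathway, had 7 recovered reads in all 6 C57BL/6J libraries together and 51 in the 6 Slit2-Tg libraries, from 0 to 2 and from 1 to 18 per library. At most 0.0580 FPKM was measured, and no test was made at this depth.

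Counting genes whose hearts did not overlap, 4 of 9 in C57BL/6J hearts (Mt2, Hmox1, Srxn1 and Gclc) had every IR library above every non-IR library, where 6.75% of all tested genes did. Without Mt2, which was tested only because of its IR libraries, it was 3 of 8. In Slit2-Tg hearts 1 of 9 did, Txnrd1, where 8.65% of all tested genes did.

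**Figure D2:**
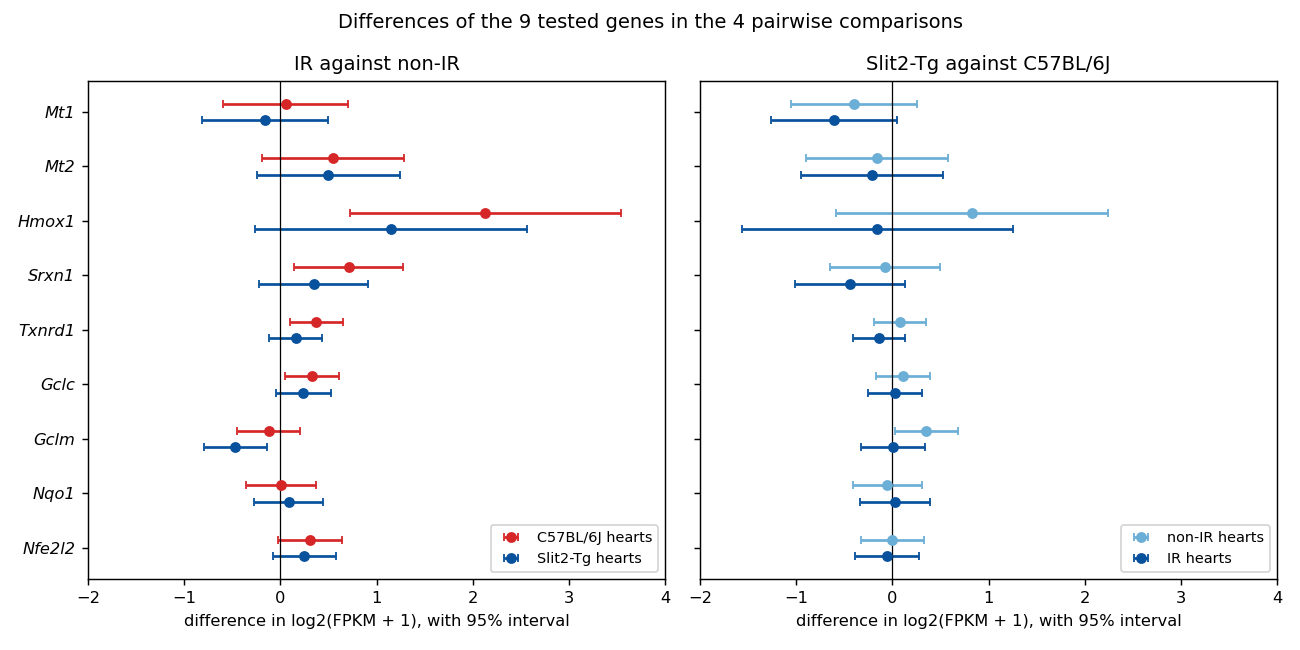
Differences in log2(FPKM + 1) of the 9 tested genes (rows) with 95% intervals from limma, IR against non-IR in each genotype on the left and Slit2-Tg against C57BL/6J in each condition on the right. The interval of Hmox1 in C57BL/6J hearts runs from 0.72 to 3.54, and no interval in the comparison of Slit2-IR with C57-IR hearts leaves out 0.

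Mt1 and Mt2 were read at very different depths. Mt1 had 3826 to 9275 reads per library and was the most abundant of the 10 genes per length, with a mean of 255 FPKM over the 12 libraries. It was 409, 279 and 204 FPKM in C57-non-IR, 249, 377 and 276 FPKM in C57-IR, 193, 282 and 185 FPKM in Slit2-non-IR and 196, 269 and 138 FPKM in Slit2-IR hearts. Neither genotype showed a separation by IR, with differences of 0.05 (95% interval -0.60 to 0.71) in C57BL/6J and -0.16 (95% interval -0.81 to 0.50) in Slit2-Tg hearts.

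Mt2 had 0 to 25 reads per library. The totals were 11 reads in C57-non-IR, 34 in C57-IR, 8 in Slit2-non-IR and 32 in Slit2-IR hearts, and 25 of the last 32 came from Slit2-IR replicate 1. In FPKM these were 0.499, 0.394 and 0.0983, then 0.585, 1.38 and 0.908, then 0.0820, 0.516 and 0, and then 2.09, 0.494 and 0, in the same order of groups. A library at 0 reads allows up to 0.202 FPKM in Slit2-non-IR replicate 3 and 0.229 FPKM in Slit2-IR replicate 3 (3 reads each, counting error only). The mean IR difference of 0.52 (SE 0.24, adjusted p = 0.313) became 0.30 without Slit2-IR replicate 1, the library with high atrial markers. In the annotation, 432 of the 588 exon bases of Mt2 (73.5%) are shared with Gm45774, an antisense gene on the opposite strand that had at most 11 reads in any library. Whether strand was used in counting, and how reads on shared bases were handled, is not given in the sources used here. Such reads may have gone to either gene or been left out, so the level of Mt2 is uncertain. How reads that match both Mt1 and Mt2 were assigned is not given either. Their coding sequences shared no run of identical bases longer than 20, so a longer read lying within them cannot match both genes exactly. The rest of the 2 transcripts was not compared. None of the exon bases of Mt1, Hmox1, Srxn1, Txnrd1, Gclc, Nqo1, Slc7a11 or Nfe2l2 was shared with another gene, and 4.71% of those of Gclm were.

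Nqo1 (chr8:107388225-107403206), a quinone reductase and a common readout of NRF2 activity, stayed between 20.8 and 33.8 FPKM in all 12 hearts. Its IR difference was 0.01 (95% interval -0.35 to 0.37) in C57BL/6J hearts and 0.08 (95% interval -0.28 to 0.45) in Slit2-Tg hearts. Nfe2l2 itself (chr2:75675513-75704641) ranged from 12.9 to 14.96 FPKM in C57-non-IR, 13.8 to 21.5 FPKM in C57-IR, 13.1 to 16.02 FPKM in Slit2-non-IR and 15.4 to 19.1 FPKM in Slit2-IR hearts, with overlap in both genotypes. The differences were 0.31 (SE 0.15, adjusted p = 0.613) and 0.25 (SE 0.15, adjusted p = 0.602). NRF2 is regulated mainly through its protein, which was not measured here.

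The labelled genotypes were compared at each condition and for the IR difference itself. In Slit2-IR against C57-IR hearts 0 of 9 genes reached an unadjusted p under 0.05, where 3.16% of all genes did and 0.0459% passed the adjusted threshold. Mt1 had the largest difference there, -0.61 (95% interval -1.27 to 0.04, adjusted p = 0.9996), from means of 301 ± 67.5 and 201 ± 65.6 FPKM (SD, n = 3) whose libraries overlapped. Same-numbered hearts deviated together in these groups, though the numbers do not pair all groups of the fit. With them as blocks in all 12 libraries, Mt1 alone reached an unadjusted p under 0.05, so the count was 1, and its adjusted p was 0.999. Leaving out any of 5 libraries also gave 1, namely replicates 1 and 2 of Slit2-IR, replicate 1 of C57-IR, and replicates 1 and 3 of C57-non-IR. Srxn1 differed by -0.44 (95% interval -1.01 to 0.13) and Hmox1 by -0.16 (95% interval -1.57 to 1.26). Intervals of this width for Hmox1 cover differences of more than 1 in either direction. Cell type markers differed here too. Macrophage markers were lower in Slit2-IR hearts in 11 of 11, adipose markers in 4 of 4 and lung markers in 3 of 3. Of these, 2 lung markers reached an unadjusted p under 0.05, against 3.16% of all tested genes. Atrial markers were higher in 9 of 10 and fibroblast markers in 6 of 7, where 49.9% of all tested genes were higher. Their part in the differences of the 9 genes was not tested.

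Without ischemia, Slit2-Tg hearts were compared with C57BL/6J hearts in the same way, and 1 of 9 genes was called at an unadjusted p under 0.05, against 3.19% of all genes and 0.0394% at the adjusted threshold. This was Gclm, with means of 5.64 ± 1.21 and 4.15 ± 0.32 FPKM (SD, n = 3) and a difference of 0.35 (SE 0.15, adjusted p = 0.9995). Without Slit2-non-IR replicate 2 it was 0.22 and the count was 0, as it was without Slit2-non-IR replicate 3 or C57-non-IR replicate 2 or 3, and the count was 2 without Slit2-non-IR replicate 1. Hmox1 had the widest interval, -0.59 to 2.24, around a difference of 0.83, which became -0.02 without Slit2-non-IR replicate 2.

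The interaction asks whether the IR difference itself was larger or smaller in Slit2-Tg hearts. The count at an unadjusted p under 0.05 was 0 of 9, with voom as well, where 1.86% of all genes reached it and 0% passed the adjusted threshold. Leaving out replicate 3 of C57-non-IR gave 1, as did leaving out replicate 1 of Slit2-non-IR. The estimate was below 0 for 8 of the 9 genes, meaning a lower IR difference in Slit2-Tg hearts, with a median of -0.21, against 0.00 for all tested genes. Hmox1 came to -0.98 (95% interval -2.98 to 1.01) and Gclm to -0.35 (95% interval -0.81 to 0.12). The Hmox1 value leaned on Slit2-non-IR replicate 2, at 37.0 FPKM against 3.96 and 7.51 FPKM in replicates 1 and 3. Without that heart, as given above, the Slit2-Tg difference came close to the 2.13 of C57BL/6J hearts. Gclc was also highest in that heart among Slit2-non-IR hearts, at 5.57 FPKM. These 9 values share the same 12 hearts, and each 95% interval included 0. The interaction was also below 0 for 11 of 11 macrophage markers (median -0.24) and 4 of 4 adipose markers. It was above 0 for 7 of 8 endothelial markers and for 51.1% of all tested genes. The part of these cell types in the interaction of the 9 genes was not tested.

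Of 11 regulators and partners of NRF2, Maff and Mafk, which encode small MAF proteins, were called for the mean IR difference, and the other 9 were not, where 3.49% of all tested genes were. Maff went from 9.14, 11.2 and 9.03 FPKM in C57-non-IR to 22.7, 83.8 and 37.8 FPKM in C57-IR hearts, and from 3.98, 13.5 and 11.4 FPKM in Slit2-non-IR to 55.0, 68.3 and 43.2 FPKM in Slit2-IR hearts. All 6 IR hearts were above all 6 non-IR hearts. Its mean IR difference was 2.26 (SE 0.32, adjusted p = 0.00417), and it held in 19 of 19 alternatives. The gene length listed for Maff, 2119 bases, differs from the 2440 exon bases of GENCODE M21. Mafk rose as well, by 1.15 (SE 0.20, adjusted p = 0.0102), from means of 18.4 and 18.8 FPKM without IR to 38.5 and 49.8 FPKM after it in C57BL/6J and Slit2-Tg hearts. Small MAF proteins lack an activation domain and pair with NRF2 as well as with BACH1.

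Among 17 genes of heme and quinone handling and other NRF2 targets, Ugdh was called, 1 of 17 against the same 3.49% of all tested genes. It encodes UDP-glucose dehydrogenase, which supplies glucuronic acid for conjugation and for hyaluronan. Ugdh was 1.81, 1.58 and 2.25 FPKM in C57-non-IR, 3.70, 7.58 and 5.23 FPKM in C57-IR, 1.91, 2.24 and 1.90 FPKM in Slit2-non-IR and 6.04, 5.40 and 4.52 FPKM in Slit2-IR hearts. Again the 6 IR hearts were above the 6 non-IR hearts. The mean IR difference was 1.10 (SE 0.13, adjusted p = 0.00199) and held in 19 of 19 alternatives. Within C57BL/6J hearts it was 1.14 (adjusted p = 0.0390) and within Slit2-Tg hearts 1.06 (adjusted p = 0.0412), but each of these calls was lost in 11 of 20 alternatives, 9 of them with 1 library left out, and the highest adjusted p was 0.167 and 0.160. The call of Maff within Slit2-Tg hearts (2.53, adjusted p = 0.0421) was lost in 13 of 20. The promoter window of Ugdh (chr5:65435793-65436092, reverse strand) is shown because it held 2 antioxidant cores, in capitals, as 0.986% of all windows do in this number or more.
Ugdh: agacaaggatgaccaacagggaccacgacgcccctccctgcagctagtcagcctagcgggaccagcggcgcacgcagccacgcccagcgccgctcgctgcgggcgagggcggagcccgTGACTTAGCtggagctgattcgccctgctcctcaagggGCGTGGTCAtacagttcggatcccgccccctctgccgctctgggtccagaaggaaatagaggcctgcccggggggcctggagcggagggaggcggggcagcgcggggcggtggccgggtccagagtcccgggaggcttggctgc

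**Figure D3:**
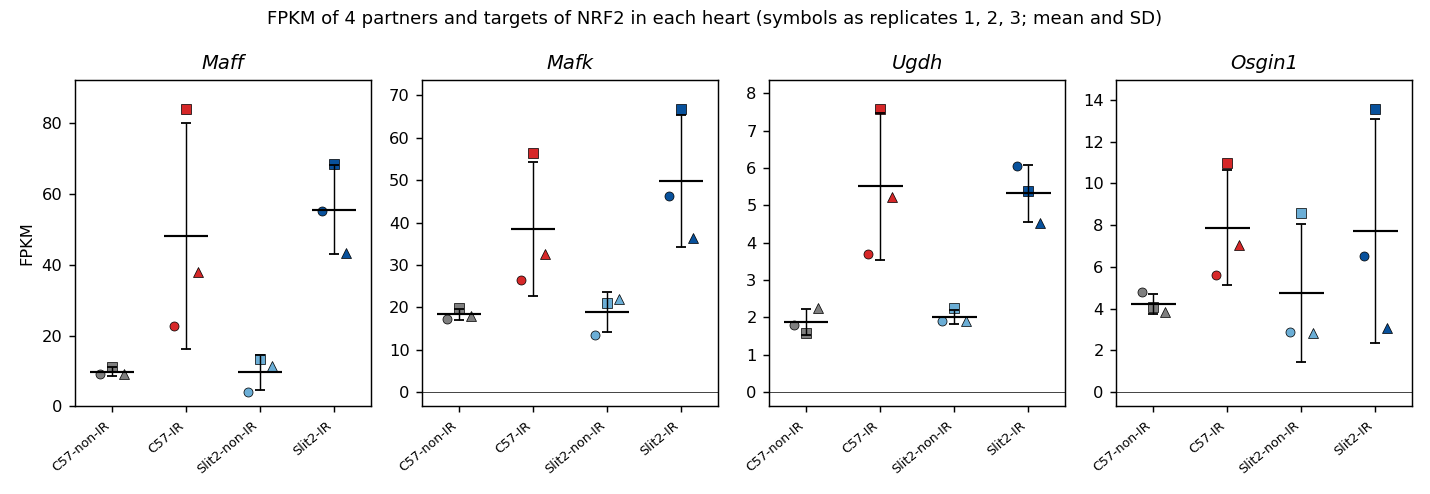
FPKM of Maff, Mafk, Ugdh and Osgin1 (vertical axes, linear) in the 12 hearts by group, with symbols for replicates 1 to 3 and means with SD (n = 3). For Maff, Mafk and Ugdh the 6 IR hearts lie above the 6 non-IR hearts, while Osgin1 overlaps, with 3.07 FPKM in Slit2-IR replicate 3.

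In the mean IR difference, none of 23 tested genes of glutathione synthesis and use, 18 of the thioredoxin and peroxiredoxin system, 5 of superoxide and peroxide removal, 8 of NADPH supply, 6 of metal response or 8 oxidases that make superoxide passed the adjusted threshold, and their class medians lay between -0.02 and 0.03. At an unadjusted p under 0.05 the glutathione class had 2 higher and 1 lower, the NADPH, metal and oxidase classes 1 lower each, and the others 0, where 15.9% of all tested genes were called and 7.93% were called as higher. Slc3a2, the partner chain of the cystine carrier, had the largest positive difference of the glutathione class at 0.45 (adjusted p = 0.123). Gsta3, a glutathione transferase, had the largest negative one at -0.67 (adjusted p = 0.235). The zinc exporter Slc30a1, itself a target of MTF1 like the metallothioneins, differed by -0.26 (adjusted p = 0.102). Xdh, whose oxidase form makes superoxide, differed by -0.58 (adjusted p = 0.159). Of 11 glucocorticoid-responsive genes, 5 were higher and 6 lower after IR and 0 passed the adjusted threshold, with 3 higher and 2 lower at an unadjusted p under 0.05, or 5 of 11 against those 15.9% of all tested genes. Cebpd, a transcription factor of that list, had the largest difference at 1.28 (adjusted p = 0.124).

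**Figure D4:**
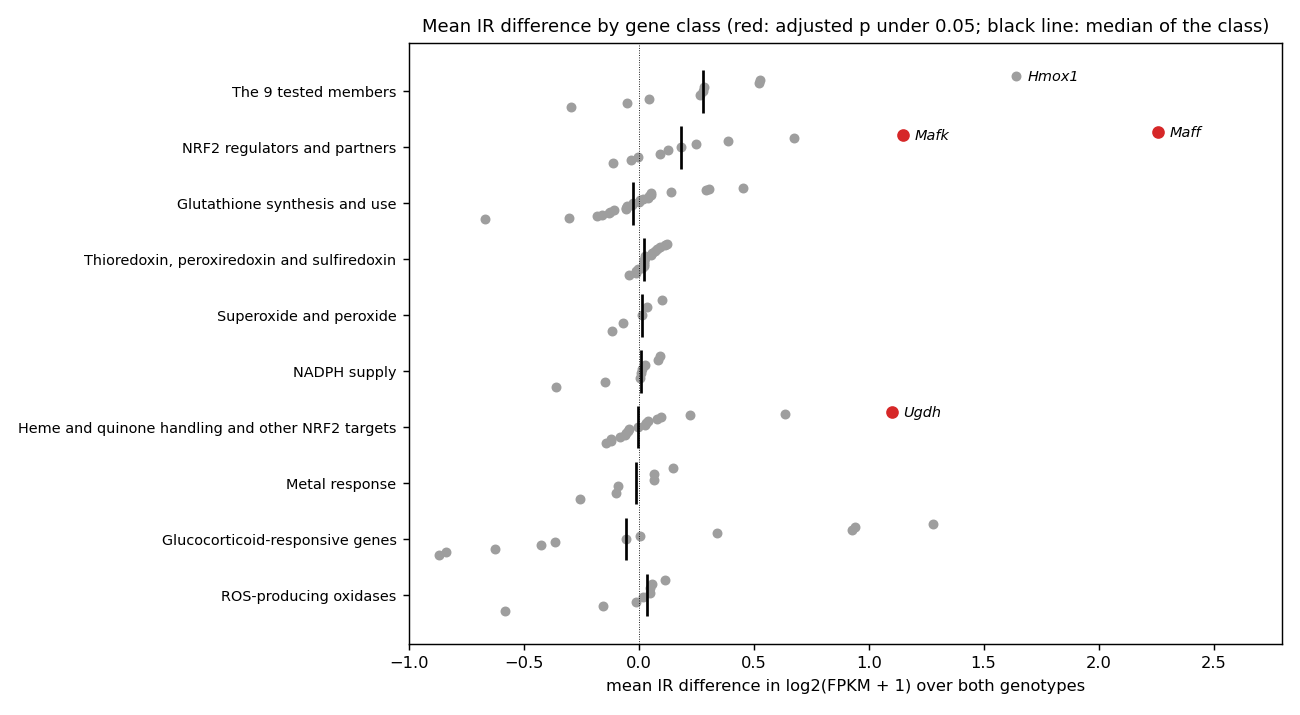
Mean IR difference in log2(FPKM + 1) over both genotypes (horizontal axis) for every tested gene of each class (rows), with red points for an adjusted p under 0.05 and a black line for the class median. Maff, Mafk and Ugdh are the 3 red points, and Hmox1, at 1.64, is the member farthest to the right.

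Gclc followed Hmox1 most closely of all 15240 tested genes, with a Pearson correlation of log2(FPKM + 1) of 0.971 over the 12 libraries. Next came Bach1 at 0.938, which encodes the repressor that heme removes from these promoters, then Mxd1 at 0.918, Nfkbiz at 0.912 and Hdc at 0.911. Bach1 itself was 5.72 ± 0.94 FPKM in C57-non-IR and 9.01 ± 2.40 FPKM in C57-IR hearts (SD, n = 3), with a mean IR difference of 0.39 (adjusted p = 0.200). The 5 genes closest to Srxn1 were Serpina3f (0.928), Clec4e (0.925), Spic (0.912), Dennd4a (0.906) and Il1a (0.903). For Mt2, at its low depth, they were Agt (0.919), Olr1 (0.873), Hprt (0.869), Ftl1 (0.866) and Sugt1 (0.865). Within the set, Srxn1 correlated with Hmox1 at 0.762 and with Txnrd1 at 0.760, Nfe2l2 with Hmox1 at 0.797, whereas Gclm and Nqo1 correlated with Hmox1 at 0.00 and 0.06. These are descriptions over 12 points that share 4 groups and replicate numbers, picked from many genes.

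**Figure D5:**
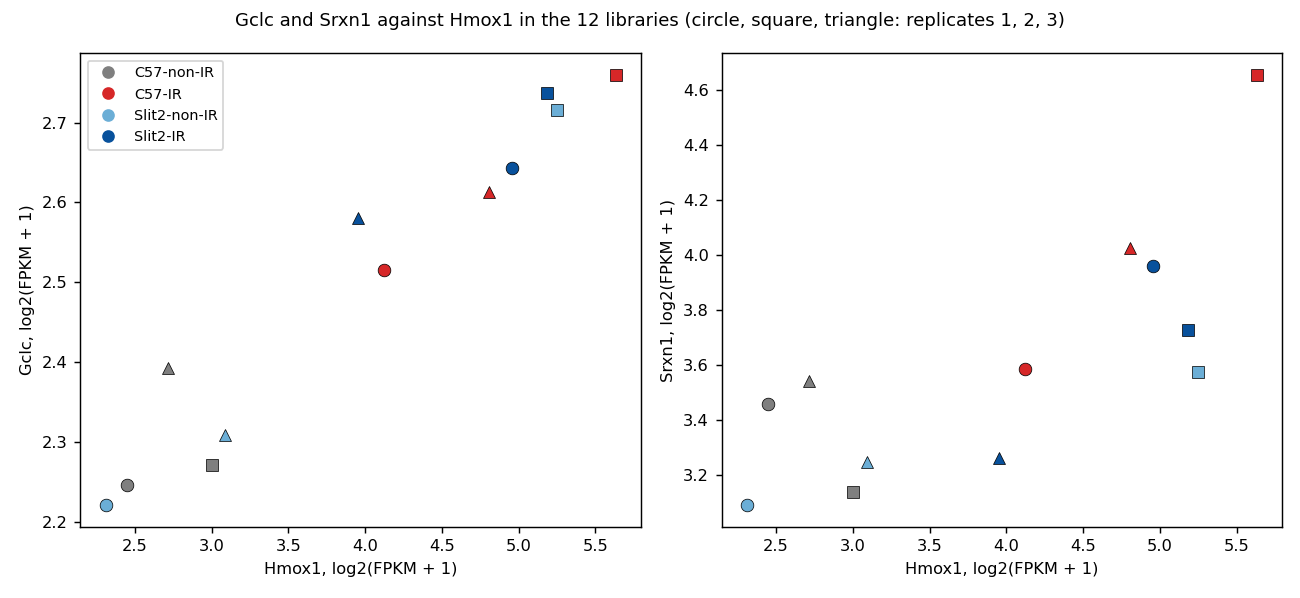
Gclc (left) and Srxn1 (right) against Hmox1 in the 12 libraries, all on the log2(FPKM + 1) scale, coloured by group with symbols for replicates 1 to 3. Slit2-non-IR replicate 2 lies among the IR hearts for Hmox1 and Gclc. For Srxn1, at 10.9 FPKM, it lies above Slit2-IR replicate 3, at 8.59 FPKM, and below the other IR hearts.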

How the data were processed

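Hearts of 4 groups, 3 libraries each, were compared for 10 genes listed by symbol. The members and the lists of related genes were chosen with earlier results of these data known. The authors deposited FPKM values per gene and library, with GRCm38 coordinates and gene lengths. HISAT2 and mm10 are named in the submitters' processing notes, whereas how reads were counted, against which annotation, and whether by strand is not given in the sources used here. Coordinates and lengths of all 10 genes equalled GENCODE M21. Once length was multiplied back, 100% of a library's values were whole multiples of what 1 read is worth (tolerance 0.01), which gave recovered reads and depth. What 1 read is worth followed each library's size factor, so the authors had scaled the libraries together. There were 0 per-library columns left unused.

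Tests used limma on log2(FPKM + 1) with a variance trend, all 12 libraries and 4 group means, with Benjamini-Hochberg adjustment over all 15240 tested genes. FPKM is not a count, and differences on this scale understate those of low genes. A gene was tested if 3 or more libraries reached what 10 reads are worth in the median library and all libraries together held 15 reads. Same-numbered hearts deviated together from their group means with correlations of 0.143 to 0.294 between Slit2-IR and Slit2-non-IR hearts and of 0.154 to 0.362 between Slit2-IR and C57-IR hearts, each over 0.1, and the pairing rests on these values alone. The labels call the samples independent and name no animals, so p-values measure the spread between these samples. All 10 members are named. Of the related lists, genes with an adjusted p under 0.05 and up to 3 per class with the largest mean IR difference could be named, and only some of the latter were. The fit was tested on simulated data with known changes. Alternatives were a pseudocount of 0.1, other filters and scalings, the 6 libraries compared alone, the replicate number as a block, voom on recovered reads, and each library left out. The tests ran in limma 3.58.1 under R 4.3.3, and tables and plots were made with pandas 2.3.3, matplotlib 3.10.9 and Python 3.11.15.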

Additional observations from a re-analysis of the deposited data

How the results depend on the processing

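For 5 of the 6 contrasts, the number of the 10 genes passing the adjusted threshold was 0 in every alternative tried. For the mean IR difference it was 0 in 16 of 19 alternatives and 0 to 2 with 1 library left out. With the replicate block it was 1, Hmox1, at an adjusted p of 0.0204. The numbers do not pair all of the groups in that contrast, since the correlation of same-numbered hearts fell to 0.0833 in C57-IR against C57-non-IR hearts and to 0.0377 in Slit2-non-IR against C57-non-IR hearts, where 2 of 6 libraries correlated best with their own number, against 6 of 6 in the other pairwise comparisons. Beside the counts given above, the block moved the unadjusted count from 1 to 0 in Slit2-non-IR against C57-non-IR hearts and from 4 to 5 in C57BL/6J hearts, and changed no other of these counts. Scaling to the total of non-mitochondrial reads moved the median of all genes by -0.06 for the mean IR difference and took the unadjusted count from 7 to 3, and in C57BL/6J hearts from 4 to 2. Leaving out 1 library gave 1 to 5 in C57BL/6J hearts, lowest without C57-IR replicate 2, and 1 to 3 in Slit2-Tg hearts. No difference with an unadjusted p under 0.05 changed sign, whereas up to 2 of the 9 genes did so in a contrast under that scaling. Over all tested genes, adjusted calls ranged from 299 to 773 for the mean IR difference (532 as reported), from 3 to 254 in C57BL/6J hearts (70), from 4 to 202 in Slit2-Tg hearts (80), from 3 to 12 in Slit2-IR against C57-IR hearts (7) and from 1 to 14 in Slit2-non-IR against C57-non-IR hearts (6). Depth limits Mt2 and Slc7a11, and with 3 hearts a group the Hmox1 interval for the mean IR difference ran from 0.64 to 2.64 and was wider in each pairwise contrast.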
